A study of Mus musculus with 12 samples.

Results

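The comparison set primary mouse embryonic fibroblasts (MEFs) that carried both knockouts (double KO) against MEFs that carried the Recql knockout alone (Recql KO), so that the genotypes differed by the loss of Blm. MEFs are connective tissue cells grown from embryos. The 6 libraries, 3 per label, were all those of these labels among the 12 of the series. The labels gave the genotypes as Blm -/- Recql -/- for double KO and Recql -/- for Recql KO, and both therefore shared the Recql knockout. The other 6 libraries, 3 of Blm KO (Blm -/-) and 3 of WT, held the second contrast for the loss of Blm and the level in cells without either knockout. All cells were grown in low oxygen (3%), and polyadenylated RNA was made into libraries with a stranded kit. The labels gave neither the alleles, the embryos' age and sex, nor whether libraries of a label came from separate embryos, so p-values measure the spread between these libraries, which may be partly technical. Every gene that passed a filter on low counts was a member, 14876 of 24054 genes in the table.

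BLM and RECQL1 are helicases of the RecQ family, which unwind DNA at replication forks and recombination intermediates. BLM acts with topoisomerase III alpha, RMI1 and RMI2 to take apart joined recombination intermediates without crossing over, and its loss in humans causes Bloom syndrome, with small stature, many exchanges between sister chromatids and a high risk of cancer. RECQL1, the product of Recql, binds replication forks and restarts forks that have been turned back. The series was designed to find transcripts that differ in cells without one or both helicases, and the comparison here asks which transcripts differ when Blm is lost in cells that are already labelled Recql -/-.

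Levels are CPM, counts scaled to a common library total and by TMM factors, and log2 fold changes are double KO minus Recql KO with the standard error of the model. Means are given with the SD over 3 libraries. A gene was called when its adjusted p was under 0.05 in edgeR's quasi-likelihood test. Library totals were 53777808, 57353051 and 55692492 expected counts in double KO, and 55387337, 57112937 and 47758552 in Recql KO. A count of 3 corresponded to 0.0508 to 0.0614 CPM over the 12 libraries, which covers counting error only. The libraries of a label were not of 1 sex class. Ddx3y, Eif2s3y, Kdm5d and Uty, 4 genes of the Y chromosome, summed to 3.31, 247 and 6.14 CPM in double KO, and 276, 29.2 and 0.691 CPM in Recql KO. Recql KO 2 also held 315 CPM of Xist, the RNA of the inactive X chromosome, beside its intermediate Y-linked level. In a principal component analysis of all 12 libraries the first component, with 47.3% of the variance, placed double KO at -7.02, -11.5 and -26 and Recql KO at 79.7, 79.6 and 74.1, while Blm KO and WT lay between -54.4 and -8.97. On this component the Recql KO libraries stood apart from the other 9, double KO included. On the second, with 15.3% of the variance, double KO 2 was farthest out at 50.5, with the next library on that side at 29.9. On the other side Blm KO 2 lay at -47.3 and Blm KO 3 at -40.5. The separation on the first component held for all 3 Recql KO libraries, so no value can be given without it. What set these 3 libraries apart was not tested.

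Blm checked the labels. It gave 5.66, 6.99 and 3.85 CPM in double KO, against 14.3, 16.4 and 16.1 CPM in Recql KO, and the groups did not overlap. The log2 fold change was -1.5 ± 0.24 (adjusted p = 0.00185), and the level was 4.13 ± 1.32 CPM in Blm KO and 20.7 ± 1.85 CPM in WT. Blm lies at chr7:80454993-80535148 in mm10, the build of all positions given. Recql did not separate the labels. Its level was 18.7, 35.6 and 24.7 CPM in double KO, against 21.7, 24.3 and 29.8 CPM in Recql KO, with a log2 fold change of 0.06 ± 0.20 (adjusted p = 0.842), and WT held 27.7 ± 1.86 CPM. Its sign changed when double KO 2 or Recql KO 1 was left out (-0.22 and -0.05). The deleted part of Recql was not given, so a total over the gene neither supports nor goes against the Recql label, and the names double KO and Recql KO stand throughout for libraries so labelled. The fibroblast markers summed to 43107, 42220.1 and 49543 CPM in double KO and 27966, 23018 and 25890.5 CPM in Recql KO. Of 14 tested 5 were higher in double KO (35.7%, against 13.2% over all genes), 3 of them the collagen genes Col1a1, Col1a2 and Col3a1.

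Between double KO and Recql KO 3681 of 14876 genes were called, 24.7% of those tested, with 1960 higher (13.2%) and 1721 lower (11.6%) in double KO. The median fold of the called genes was 1.66, 763 were over 2-fold higher and 642 over 2-fold lower, and 5716 genes had an unadjusted p under 0.05. For comparison, 112 genes (0.753%) were called between Blm KO and WT. Without Recql KO 1 or Recql KO 2 the count for double KO against Recql KO was 2250 and 2157. It was 3741 in a fit with the level of those Y genes as a term. Within a sex class the comparison has too few libraries to be read, with 1 of each label (double KO 2 and Recql KO 1) high in the Y genes, and double KO 1 and 3 against Recql KO 3 alone low in them. Among the 3681 called genes, 2899 (78.8%) had all 3 Recql KO libraries above or below all other 9, against 27.2% of all tested genes. In 188 (5.11%) all 3 double KO libraries lay beyond the other 9, against 1.85% of all tested genes. The call itself raises both shares of called genes, since it selects genes in which double KO and Recql KO lie apart. These labels did not overlap in 3623 of the 3681, against 43.6% of all tested genes. A gap between them described for a gene below therefore adds little to its call. Set directly against WT, with the same double KO libraries, double KO differed in 18 genes (0.121%), and 1605 genes had an unadjusted p under 0.05. The number of genes called between double KO and WT was 338 in DESeq2, 50 with the replicate number as a block and 45 with the level of those Y genes as a term. In most called genes the 3 Recql KO libraries lay outside the range of the other 9, a share that the call itself raises.

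Genes of the extracellular matrix were higher in double KO. Of 40 tested genes for fibrillar collagens, elastic fibres and proteoglycans, 22 were higher in double KO (55.0%, against 13.2% over all genes) and 0 lower. The median log2 fold change was 0.65 against 0.02 over all genes. Eln, which encodes elastin, the rubber-like core of elastic fibres, gave 156, 97.9 and 188 CPM in double KO, against 0.945, 1.34 and 3.26 CPM in Recql KO. All 3 double KO libraries lay far above all 3 of Recql KO, and the level was 123 ± 38.4 CPM in Blm KO and 61.9 ± 11.1 CPM in WT. The log2 fold change was 6.33 ± 0.49 (adjusted p = 0.000107), and it was 7.0 without Recql KO 3, the highest of its group. Fbn2, which encodes a microfibril protein of embryonic elastic fibres, averaged 287 ± 29.9 CPM in double KO and 39.9 ± 0.974 CPM in Recql KO (SD, n = 3), with a log2 fold change of 2.85 ± 0.29 (adjusted p = 0.000266). Col3a1, the collagen of pliable connective tissue, gave 3844, 3445 and 4659.9 CPM in double KO, against 551, 449 and 875 CPM in Recql KO. These groups were also fully separate, at 2.67 ± 0.29 (adjusted p = 0.000368) on the log2 scale. The chains of collagen I, the main fibre of skin and bone, had smaller log2 fold changes than Col3a1. Col1a1 averaged 12751 ± 815 CPM in double KO and 5541 ± 960.3 CPM in Recql KO, and Col1a2 9281 ± 1126 CPM in double KO and 3481 ± 490.4 CPM in Recql KO, with log2 fold changes of 1.2 ± 0.16 (adjusted p = 0.000693) and 1.41 ± 0.15 (adjusted p = 0.000314). Aspn, a small proteoglycan on collagen fibres, had a log2 fold change of 2.28 ± 0.36 (adjusted p = 0.0019).

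**Figure D1:**
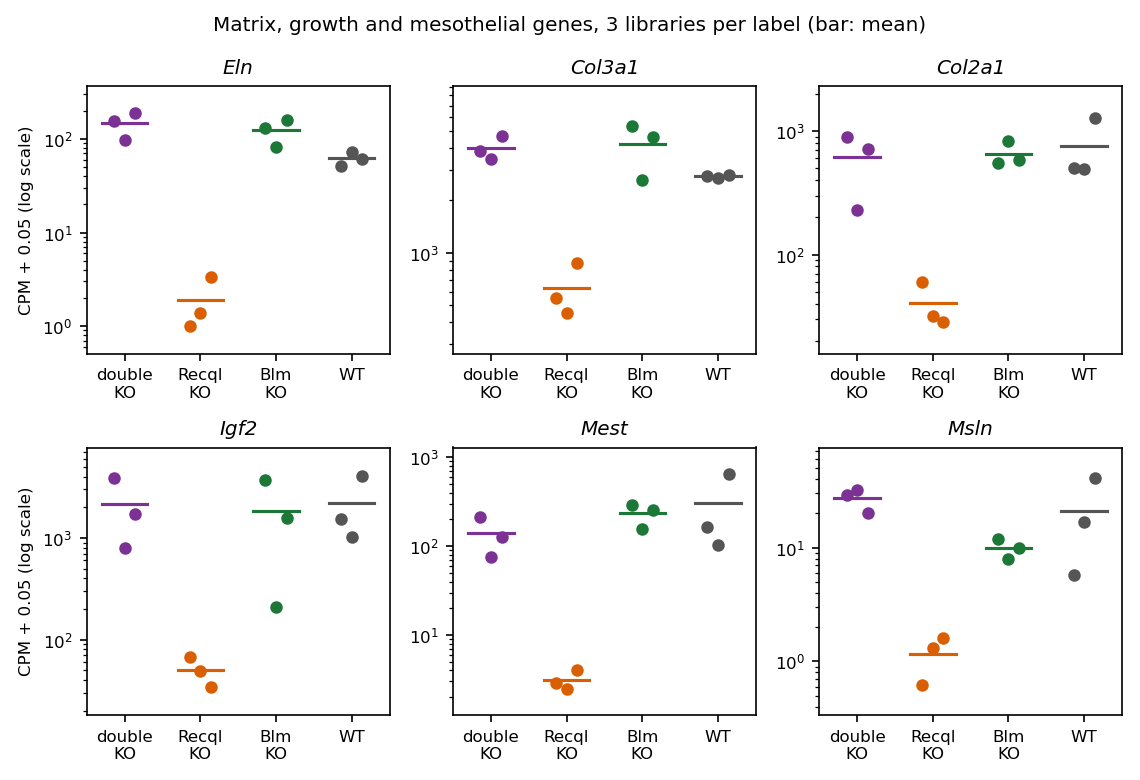
Level of 6 genes in each library (points, CPM + 0.05 on a log axis) by label, with the mean of 3 libraries as a bar. In each panel the 3 Recql KO points lie below the 3 double KO points; Eln reached at most 3.26 CPM in Recql KO, against at least 97.9 CPM in double KO.

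Cartilage genes were higher as well. Of 20 tested, 13 were higher (65.0%, against 13.2% over all genes) and 0 lower, with a median log2 fold change of 2.74. The count was 8 without Recql KO 1 and 7 without Recql KO 2. Col2a1, the main collagen of cartilage, gave 895, 229 and 709.6 CPM in double KO, against 60, 31.5 and 28.6 CPM in Recql KO. Double KO 2 held the least of its group and was still above every Recql KO library. The log2 fold change was 3.93 ± 0.58 (adjusted p = 0.0014). Col9a1 and Col9a2 encode chains of collagen IX, which sits on the surface of collagen II fibres. Col9a1 gave 6.22, 7.69 and 5.72 CPM in double KO, against 0, 0.0344 and 0.123 CPM in Recql KO, so that the Recql KO level was close to that of 3 counts, and its log2 fold change was 6.96 ± 1.00 (adjusted p = 0.00124), or 8.35 without Recql KO 3. Col9a2 averaged 5.11 ± 1.01 CPM in double KO and 0.269 ± 0.0563 CPM in Recql KO, at 4.24 ± 0.53 (adjusted p = 0.000659). Blm KO and WT held 654 and 757 CPM of Col2a1, levels near that of double KO.

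Of 13 osteoblast genes, 6 were higher (46.2%, against 13.2% over all genes) and 0 lower, and 3 were higher without Recql KO 1 or Recql KO 3. The summed level of the list, which its most abundant members set, overlapped between the labels, at 366, 726 and 660.3 CPM in double KO and 784, 581 and 899 CPM in Recql KO, and 4 of the 13 had a log2 fold change below 0. Smpd3, a sphingomyelinase needed for bone mineral, gave 25.9, 19 and 13.2 CPM in double KO, against 3.35, 2.69 and 1.56 CPM in Recql KO (log2 fold change 2.93 ± 0.60, adjusted p = 0.00632). Of 16 contractile genes 8 were higher and 0 lower, beside 13.2% higher over all genes. The number higher was 5 without double KO 1, double KO 2 or Recql KO 3 and 4 without Recql KO 2. The contractile genes summed to 13775, 16828 and 14135 CPM in double KO and 13715, 10809 and 10561 CPM in Recql KO. Double KO 1 thus lay only just above Recql KO 1. Actg2, the gamma actin of visceral smooth muscle, gave 265, 506 and 349.8 CPM in double KO, against 138, 83.3 and 94.6 CPM in Recql KO, with the highest level in double KO 2 and a log2 fold change of 1.83 ± 0.41 (adjusted p = 0.00967). Mylk, the kinase that starts smooth muscle contraction, had a log2 fold change of 1.41 ± 0.22 (adjusted p = 0.00191).

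Markers of epithelia and of the mesothelium, the sheet of cells that lines body cavities, were higher too. Of 12 tested epithelial and mesothelial markers, 8 were higher (66.7%, against 13.2% over all genes) and 0 lower. Their summed level was 182, 169 and 119 CPM in double KO, against 15.6, 28.1 and 21.5 CPM in Recql KO. Msln, which encodes mesothelin, a surface protein of mesothelial cells, gave 28.8, 32.1 and 20.1 CPM in double KO, against 0.574, 1.26 and 1.54 CPM in Recql KO (log2 fold change 4.59 ± 0.66, adjusted p = 0.00123), and Krt8, a keratin of simple epithelia, gave 8.51, 10.2 and 2.06 CPM in double KO, against 0.0927, 0.327 and 0.205 CPM in Recql KO (log2 fold change 5.03 ± 1.15, adjusted p = 0.0107). Epcam, Cdh1 and Krt19, epithelial members of the list, were not called. In bulk RNA fewer cells of a type and less RNA per cell cannot be told apart. The other marker lists had 15.4% to 28.6% of members called, near or under the 24.7% over all genes, so their counts are given as values only. Endothelial markers had 2 of 10 higher and 0 lower, with sums of 111, 149 and 95.6 CPM in double KO and 61.9, 66.6 and 71.2 CPM in Recql KO. Macrophage and blood markers had 1 of 13 higher and 1 lower, with sums of 23.1, 11.7 and 8.95 CPM in double KO and 6.39, 7.81 and 12.1 CPM in Recql KO. Pecam1, a defining endothelial gene, was at most 0.472 CPM in these 6 libraries, and Ptprc, the gene of the blood cell antigen CD45, at most 1.02 CPM. Cldn5 and Sox17 of the endothelial list, Hba-a2 and Hbb-bs of the blood list and Cidec of the adipocyte list had 0 counts in both labels. Skeletal muscle markers had 2 of 11 higher and 1 lower, with sums of 52.5, 102 and 48 CPM in double KO and 111, 116 and 101 CPM in Recql KO. Adipocyte markers had 1 of 7 higher and 1 lower, with sums of 109, 60.1 and 53.6 CPM in double KO and 125, 62.1 and 63.2 CPM in Recql KO. Of 13 neural markers 1 was higher and 2 were lower, with sums of 595, 671 and 604 CPM in double KO and 648, 608 and 642 CPM in Recql KO. Map2, a neuronal microtubule protein, had a log2 fold change of 1.67 ± 0.30 (adjusted p = 0.0039) and Tubb3, a neuronal tubulin, one of -1.29 ± 0.31 (adjusted p = 0.0132). The part of other cell types in the matrix, cartilage and contractile counts was not tested.

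Genes of fetal growth were higher in double KO, and those named here are imprinted. Imprinted genes are read from the copy of 1 parent, and many of them set the growth of the fetus. Of 22 tested genes of the IGF system and imprinted loci, 14 were higher and 1 lower (68.2% called, against 24.7% over all genes). Their median log2 fold change was 1.41. Igf2, the fetal insulin-like growth factor, gave 3924, 799 and 1723 CPM in double KO, against 67.7, 48.6 and 34.4 CPM in Recql KO. Every double KO library was over every Recql KO library, although double KO itself spread widely. Its log2 fold change was 5.42 ± 1.05 (adjusted p = 0.00503), and 4.65 without double KO 1. H19, the noncoding RNA beside Igf2 that is read from the other parent's copy, gave 2524, 662 and 1506 CPM in double KO, against 50.3, 30.4 and 47.3 CPM in Recql KO, in the same order of libraries within double KO as Igf2, at 5.2 ± 0.88 (adjusted p = 0.00264). Igf2 lies at chr7:142650768-142666816 and H19 at chr7:142575530-142578146. Mest, a paternally expressed gene of another imprinted region, gave 214, 76 and 127 CPM in double KO, against 2.8, 2.44 and 4.03 CPM in Recql KO, at 5.49 ± 0.75 (adjusted p = 0.000974). Blm KO and WT held 1824 and 2215 CPM of Igf2, and 234 and 306 CPM of Mest.

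Among Wnt and BMP signalling genes, which pattern the embryo, 13 of 38 were higher and 3 lower (42.1% called, against 24.7% over all genes). Without double KO 3, 8 were higher and 2 lower. Axin2, a feedback inhibitor that Wnt signalling turns on, gave 3.7, 7.01 and 4.97 CPM in double KO, against 0.612, 0.688 and 1.06 CPM in Recql KO (log2 fold change 2.73 ± 0.37, adjusted p = 0.000931). Wnt16, a Wnt ligand, had a log2 fold change of 2.63 ± 0.44 (adjusted p = 0.00257). Of 46 transcription factors that mark position or lineage, 9 were higher and 5 lower, near the shares over all genes, with 7 higher and 3 lower without double KO 3. Tcf21, a factor of visceral mesenchyme, gave 2.47, 2.07 and 2.05 CPM in double KO, against 0.0741, 0.103 and 0.0205 CPM in Recql KO, while Blm KO and WT held 0.283 and 0.334 CPM, so that double KO was the highest of the 4 labels (log2 fold change 4.98 ± 0.88, adjusted p = 0.00325). Foxd1, a factor of kidney stroma, had a log2 fold change of 2.52 ± 0.40 (adjusted p = 0.00198), and Twist2, a factor of dermal fibroblasts, one of -1.79 ± 0.32 (adjusted p = 0.00341). The Hox genes, which mark position along the body, included 0 higher and 8 lower of 36 (22.2%, against 11.6% lower and 24.7% called over all genes). There were 3 lower without double KO 2, double KO 3, Recql KO 1 or Recql KO 2. Without Recql KO 3 there were 3 higher and 8 lower. Hoxb7 gave 15.6, 6.39 and 9.15 CPM in double KO, against 27.1, 24.6 and 21.8 CPM in Recql KO, with a log2 fold change of -1.24 ± 0.27 (adjusted p = 0.00816). Hoxb8 gave 15.2, 11.9 and 12.6 CPM in double KO, against 28.5, 23.6 and 17.8 CPM in Recql KO, with a log2 fold change of -0.81 ± 0.16 (adjusted p = 0.0047). Whether the cultures came from like regions of the embryo is not in the labels.

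Further genes stood out by the size of their change. Heyl, a transcription factor that Notch signalling turns on, gave 5.09, 10.5 and 5.06 CPM in double KO, against 0.0741, 0.155 and 0.143 CPM in Recql KO. Its average was 0.478 CPM in Blm KO and 1.54 CPM in WT. Its log2 fold change was 5.77 ± 0.72 (adjusted p = 0.000653). Gucy1a3, a subunit of the enzyme that makes cyclic GMP in response to nitric oxide, had 20.3 ± 5.26 CPM in double KO and 0.584 ± 0.154 CPM in Recql KO, at 5.1 ± 0.40 (adjusted p = 0.000107). Tenm3, a cell adhesion protein of the developing nervous system, had 251 ± 79.1 CPM in double KO and 34 ± 4.21 CPM in Recql KO, at 2.88 ± 0.28 (adjusted p = 0.00018).

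**Figure D2:**
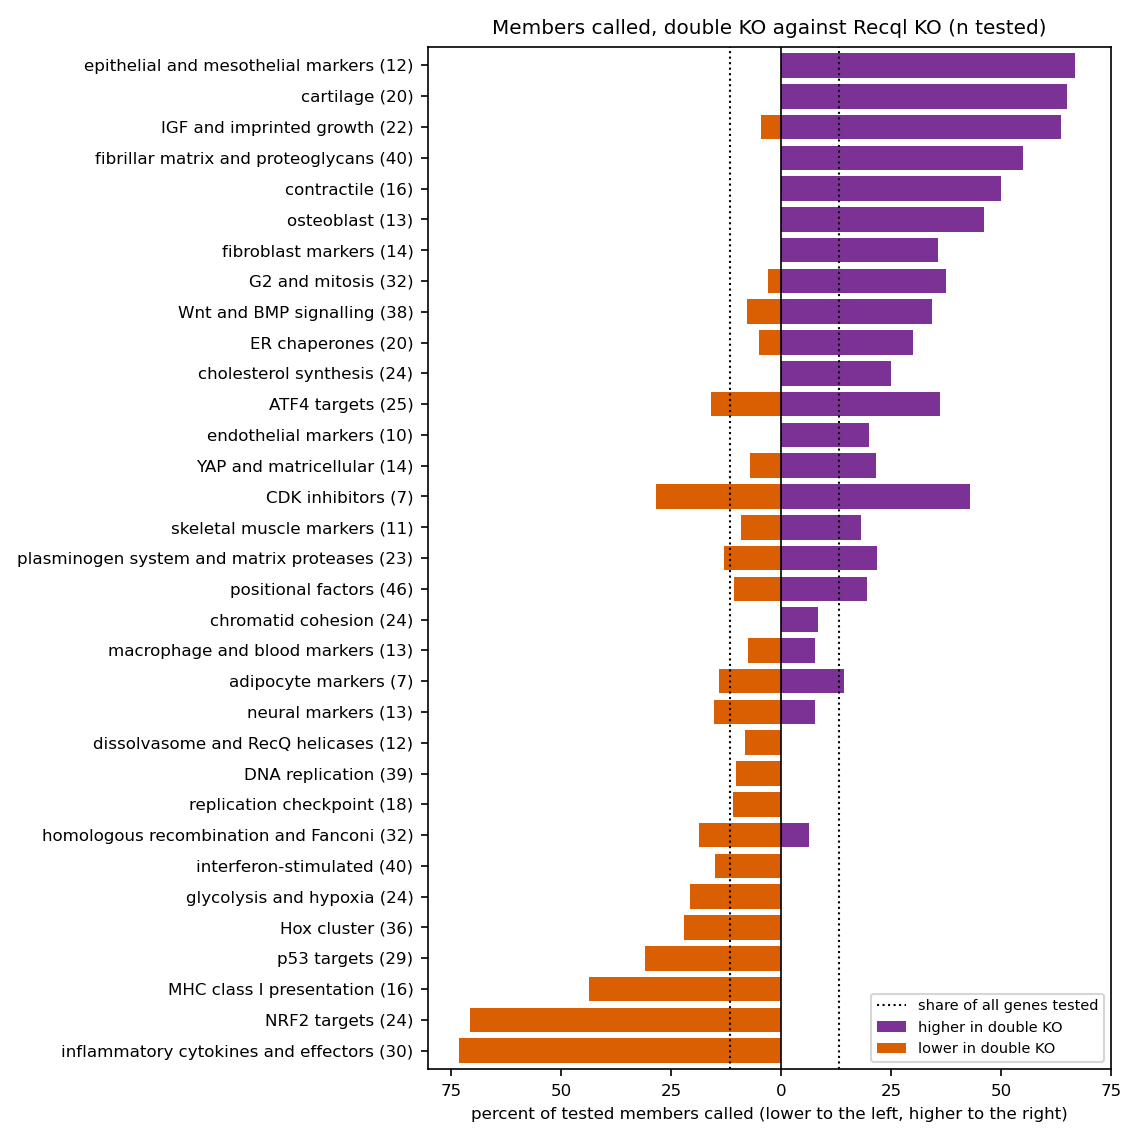
Percent of the tested members of each gene list, the proliferins left out, that were called higher (right) or lower (left) in double KO than in Recql KO, with the number tested in brackets. Dotted lines mark the 13.2% higher and 11.6% lower among all 14876 genes; the epithelial and mesothelial, cartilage and IGF lists reach farthest right, and the inflammatory and NRF2 lists farthest left.

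Among the lower genes were those of secreted proteins that inflammation and growth stimulation induce in fibroblasts. The promoters of many such genes carry the AP-1 motif, bound by Fos and Jun proteins, which is why 2 promoter windows of strongly lower genes are shown first. They are from RefSeq promoters on GRCm38.p6, the same assembly as mm10, that run from 250 bases before to 50 after the annotated start, written 5′ to 3′ on the gene's strand with the AP-1 match (TGANTCA, both strands) in capitals. Serpinb2 stands at chr1:107511299-107511365, plus strand, with the match 94 bases before the first of its 2 starts in the promoter table, and Mmp3 at chr9:7445746-7445812, plus strand, with the match 46 bases before its start.
Serpinb2: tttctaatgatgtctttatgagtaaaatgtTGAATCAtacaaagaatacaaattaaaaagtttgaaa
Mmp3: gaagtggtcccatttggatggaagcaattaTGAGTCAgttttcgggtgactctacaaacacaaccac
This motif was found in 8 of 22 genes with a promoter in the inflammatory list (36.4%) and 5 of 16 in the plasminogen and protease list (31.2%). The share was 6.71% of 11059 tested genes with a promoter and 7.81% of all 32851 promoters. Among lists described below it was 24.1% for interferon-stimulated genes, 22.2% for NRF2 targets and 0% for MHC class I and for G2 and mitosis genes. Shares were not split by direction, and the protease list had 5 genes higher and 3 lower. A match is a description of the letters only.

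Of 30 tested inflammatory cytokines and effectors, 0 were higher and 22 lower in double KO (73.3%, against 11.6% lower over all genes). Their median log2 fold change was -1.82. Ccl2, the chemokine that draws monocytes, gave 24.1, 19.3 and 10.7 CPM in double KO, against 230, 332 and 387 CPM in Recql KO. No double KO library came near the lowest Recql KO library, and the log2 fold change was -4.13 ± 0.80 (adjusted p = 0.00505). Ccl7, a neighbouring chemokine gene, had 27 ± 5.82 CPM in double KO and 226 ± 56.8 CPM in Recql KO, at -3.07 ± 0.54 (adjusted p = 0.00325). Saa3, an acute phase protein, gave 2.13, 0.0702 and 0.0731 CPM in double KO, against 104, 54.2 and 69.4 CPM in Recql KO. Double KO 1 held most of what was left in double KO. Saa3 had a log2 fold change of -6.66 ± 1.10 (adjusted p = 0.00237), and -10.01 without double KO 1. Nos2, the inducible nitric oxide synthase, was near the level of 3 counts in double KO, with 0.0377, 0.0176 and 0.0731 CPM in double KO, against 13.2, 12.9 and 18 CPM in Recql KO (log2 fold change -8.36 ± 1.13, adjusted p = 0.000931). Its log2 fold change was -8.96 without double KO 3. The level of Ccl2 was 9.58 ± 1.52 CPM in Blm KO and 69.5 ± 85.6 CPM in WT.

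Proliferins are growth hormone-like secreted proteins of the prolactin family that serum and growth factors induce in fibroblasts. Of 5 genes listed 3 passed the filter, through the Recql KO libraries in which they were high, so the filter itself fixed their direction and their count is no result. Prl2c2 gave 0.434, 0.0351 and 0.0548 CPM in double KO, against 33, 75.5 and 114 CPM in Recql KO, at -8.74 ± 0.81 (adjusted p = 0.000149), or -10.63 without double KO 1. It was at 0.247 and 0.216 CPM on average in Blm KO and WT, so that only the Recql KO libraries expressed it above 1 CPM. The proliferin genes are near-identical copies among which reads are shared out by estimate, so the level of any 1 copy is uncertain. In the plasminogen system and matrix proteases, 5 of 23 were higher and 3 lower (34.8% called, against 24.7% over all genes). Without Recql KO 1 or Recql KO 2, 3 were higher and 3 lower. Serpinb2, an inhibitor of plasminogen activators, gave 0.264, 0.579 and 0.237 CPM in double KO, against 10.9, 20.6 and 15.5 CPM in Recql KO (log2 fold change -5.43 ± 0.44, adjusted p = 0.000107). Mmp3, the stromelysin that cuts many matrix proteins, gave 4.83, 7.01 and 2.36 CPM in double KO, against 14.1, 35 and 166 CPM in Recql KO, with most of the Recql KO level in 1 library. The log2 fold change of Mmp3 was -3.92 ± 0.92 (adjusted p = 0.0119), and -2.38 without Recql KO 3. Adamts12, a matrix protease, went the other way, with 127 ± 15.5 CPM in double KO and 40.6 ± 5.53 CPM in Recql KO and a log2 fold change of 1.64 ± 0.16 (adjusted p = 0.000171).

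**Figure D3:**
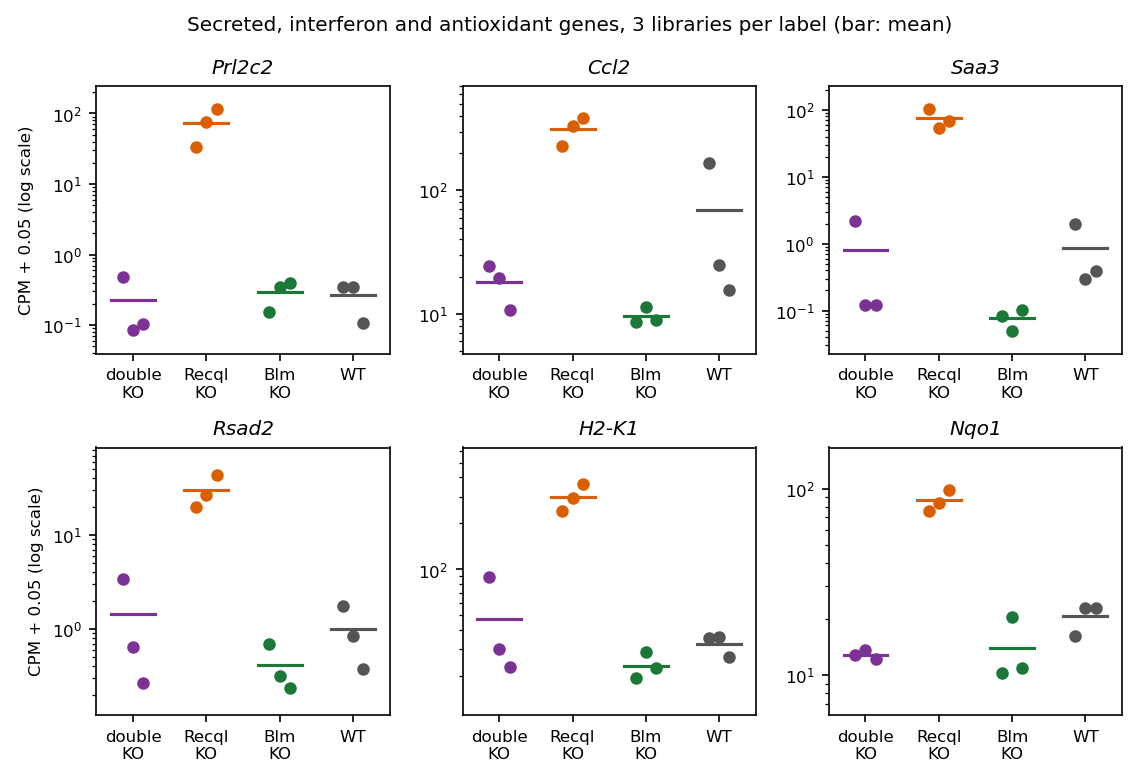
Level of 6 genes in each library (points, CPM + 0.05 on a log axis) by label, with the mean of 3 libraries as a bar. All 3 Recql KO points lie above all 3 double KO points in each panel, and for Saa3, Rsad2 and H2-K1 double KO 1, the leftmost point, is the highest of its group.

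Interferon-stimulated genes, the antiviral programme switched on by interferons through the ISRE motif, had a negative median change, but double KO spread widely and few of them were called. Windows of 2 of these promoters are shown as above, with the ISRE-like match (GAAA, any 2 bases and again GAAA, both strands) in capitals. Rsad2 stands at chr12:26456533-26456602, minus strand, with the match 120 bases before the start, and Cxcl10, an interferon-induced chemokine, at chr5:92349063-92349132, minus strand, with the match 213 bases before the start.
Rsad2: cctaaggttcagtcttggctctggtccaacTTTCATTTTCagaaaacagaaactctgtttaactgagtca
Cxcl10: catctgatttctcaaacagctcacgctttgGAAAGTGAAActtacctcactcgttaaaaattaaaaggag
This match was in 16 of 29 genes of the interferon list with a promoter (55.2%), against 3.63% of tested genes with a promoter and 3.44% of promoters taken singly. Of 40 interferon-stimulated genes 0 were higher and 6 lower, beside 13.2% higher and 11.6% lower over all genes, with a median log2 fold change of -1.36. The summed level of the list was 2433, 519.9 and 415 CPM in double KO, against 2336, 2668 and 3067 CPM in Recql KO. Double KO 1 was thus at the Recql KO level and the other two double KO libraries were well under it. Without double KO 1, 39 of 40 were lower, with a median of -3.38. Rsad2, which encodes the antiviral enzyme viperin, gave 3.36, 0.597 and 0.219 CPM in double KO, against 19.7, 26.7 and 43.8 CPM in Recql KO, at -4.44 ± 0.89 (adjusted p = 0.00598), or -6.2 without double KO 1. Cxcl10 gave 1.68, 1.32 and 0.438 CPM in double KO, against 19.9, 25.4 and 48.6 CPM in Recql KO, at -4.77 ± 0.82 (adjusted p = 0.00282). The MHC class I genes, which show peptides to T cells, had 0 higher and 7 lower of 16 (43.8%, against 11.6% lower over all genes). Without double KO 1, 13 were lower. Their summed level was 1835, 666 and 688 CPM in double KO, against 3496, 3333 and 3717 CPM in Recql KO, so that double KO 1 lay between the other two double KO libraries and Recql KO. H2-K1, a classical class I heavy chain, gave 89.2, 30.1 and 23.1 CPM in double KO, against 243, 293 and 362 CPM in Recql KO, at -2.66 ± 0.44 (adjusted p = 0.00242), or -3.5 without double KO 1. Class I heavy chain genes resemble each other closely, so reads may be shared out among them. The promoters of H2-K1 had 0 ISRE-like matches.

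Many targets of NRF2, the factor that turns on antioxidant and detoxifying genes, were lower. Of 24 tested, 0 were higher and 17 lower (70.8%, against 11.6% lower over all genes), with a median log2 fold change of -0.74. Nqo1, a quinone reductase, gave 12.7, 13.6 and 12.1 CPM in double KO, against 76, 84 and 98.8 CPM in Recql KO. Each label was tight and the groups lay far apart, at -2.75 ± 0.26 (adjusted p = 0.000155). The level was 13.9 ± 5.78 CPM in Blm KO and 20.6 ± 3.78 CPM in WT. Hmox1, which breaks down haem, gave 71.2, 52.9 and 90 CPM in double KO, against 368, 283 and 213 CPM in Recql KO, at -2.01 ± 0.23 (adjusted p = 0.000475). Gclc, the catalytic subunit of the enzyme that limits glutathione synthesis, averaged 43.5 ± 3.64 CPM in double KO and 105 ± 6.16 CPM in Recql KO, at -1.27 ± 0.11 (adjusted p = 0.000111). Blvrb, a biliverdin reductase, had a log2 fold change of -1.39 ± 0.12 (adjusted p = 0.000111). The binding core of NRF2 (TGACNNNGC, both strands), which TGACTCA followed by GC also meets, was found in 7 of 18 genes of the list with a promoter (38.9%). The share was 16.9% of tested genes with a promoter and 12.4% of promoters taken singly. The core had 0 matches in the promoter of Nqo1.

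Of the other metabolic and stress lists, those of ATF4 targets and of the endoplasmic reticulum were called more often than the 24.7% over all genes (52.0% and 35.0%). Cholesterol synthesis, glycolysis and hypoxia (20.8%) and YAP and matricellular genes (28.6%) were near that share, and their counts are given as values only. Of 25 targets of ATF4, a factor of amino acid shortage, 9 were higher and 4 lower. The split was 9 and 2 without double KO 2, 6 and 2 without double KO 3 or Recql KO 3, and 8 and 1 without Recql KO 1 or Recql KO 2. Slc7a5, a transporter of large neutral amino acids, gave 145, 144 and 179.5 CPM in double KO, against 70.2, 58 and 51.2 CPM in Recql KO (log2 fold change 1.38 ± 0.16, adjusted p = 0.000441), and Psat1, an enzyme of serine synthesis, had a log2 fold change of 0.84 ± 0.13 (adjusted p = 0.00183). Slc7a11, the cystine importer that ATF4 and NRF2 both control, was lower, at -0.93 ± 0.21 (adjusted p = 0.0102). Of 20 chaperones and folding genes of the endoplasmic reticulum, 6 were higher and 1 lower, with 3 higher without double KO 1, Recql KO 2 or Recql KO 3. Hspa5, the main chaperone there, averaged 1403 ± 124 CPM in double KO and 997 ± 76.2 CPM in Recql KO (log2 fold change 0.49 ± 0.09, adjusted p = 0.00468), Xbp1, a factor of the unfolded protein response, had a log2 fold change of 0.64 ± 0.08 (adjusted p = 0.000516), and Dnajb9, a co-chaperone, one of -0.54 ± 0.10 (adjusted p = 0.00434). Of 24 cholesterol synthesis genes 6 were higher and 0 lower, but the count was 14 without double KO 1, 3 without double KO 2, 1 without Recql KO 1 or Recql KO 2 and 2 without Recql KO 3. Mvk, the kinase of mevalonate, gave 12.3, 22.7 and 14.2 CPM in double KO, against 9.15, 8.9 and 8.72 CPM in Recql KO (log2 fold change 0.88 ± 0.21, adjusted p = 0.0132). Of 24 genes of glycolysis and hypoxia 5 were lower and 0 higher, with 15 lower without double KO 2 and 3 without double KO 1 or Recql KO 3. Hk2, a hexokinase, had a log2 fold change of -0.82 ± 0.19 (adjusted p = 0.0111). Among 14 YAP and matricellular genes 3 were higher and 1 lower, and 1 was higher and 0 lower without Recql KO 1 or Recql KO 2.

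Inhibitors of cyclin-dependent kinases, which hold cells in G1, split between directions. Of 7 tested 3 were higher (Cdkn1b, Cdkn1c and Cdkn2c) and 2 lower (Cdkn1a and Cdkn2a), or 71.4% called against 24.7% over all genes. None was lower without double KO 1, double KO 2 or any 1 of the Recql KO libraries. Cdkn1b, which encodes p27, gave 45, 46.3 and 48.2 CPM in double KO, against 18.5, 19.5 and 23.8 CPM in Recql KO, 2 tight groups that did not overlap. Its log2 fold change was 1.17 ± 0.11 (adjusted p = 0.000159), and the level was 65.8 ± 4.23 CPM in Blm KO and 63.7 ± 8.0 CPM in WT. Cdkn2c, which encodes p18, had a log2 fold change of 0.82 ± 0.16 (adjusted p = 0.00591). Cdkn1c, which encodes p57, had a log2 fold change of 1.65 ± 0.45 (adjusted p = 0.0228), and its call was lost without double KO 1, Recql KO 1 or Recql KO 2 (adjusted p = 0.0612, 0.0873 and 0.0621 in edgeR). Cdkn1a, which encodes p21, the main p53 target that stops the cycle, gave 481, 374 and 524 CPM in double KO, against 708, 617 and 608 CPM in Recql KO, at -0.49 ± 0.15 (adjusted p = 0.0374). The call of Cdkn1a was lost without double KO 1, double KO 2, Recql KO 1, Recql KO 2 or Recql KO 3 (adjusted p = 0.0581, 0.0908, 0.116, 0.0701 and 0.0572 in edgeR). Cdkn2a, which encodes p16 and p19Arf and rises as MEFs age in culture, gave 21.7, 15.2 and 27.5 CPM in double KO, against 42.1, 41.7 and 40.6 CPM in Recql KO, at -0.95 ± 0.27 (adjusted p = 0.0285), and its call was lost without the same 5 libraries, each left out alone (adjusted p = 0.0598, 0.0737, 0.0692, 0.0701 and 0.0578 in edgeR).

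The transcripts of p53 targets were in part lower. Of 29 tested, 0 were higher and 9 lower (31.0%, against 11.6% lower and 24.7% called over all genes), with a median log2 fold change of -0.32. The number lower was 4 without double KO 2 or Recql KO 1 and 5 without Recql KO 2. Mdm2, the ligase that degrades p53 and is itself a p53 target, gave 319, 273 and 325 CPM in double KO, against 755, 717 and 659 CPM in Recql KO. The groups were well apart (log2 fold change -1.22 ± 0.13, adjusted p = 0.000262), and the level was 253 ± 40.1 CPM in Blm KO and 310.2 ± 32.2 CPM in WT. Plk2, a polo-like kinase that p53 induces, averaged 267 ± 32.8 CPM in double KO and 524 ± 27.7 CPM in Recql KO, at -0.97 ± 0.10 (adjusted p = 0.00018). Trp53 itself gave 84.9, 95.6 and 87.2 CPM in double KO, against 99.4, 112 and 109 CPM in Recql KO, at -0.26 ± 0.08 (adjusted p = 0.0298). That call was lost without double KO 1, double KO 3, Recql KO 2 or Recql KO 3 (adjusted p = 0.0889, 0.084, 0.103 and 0.0786 in edgeR).

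Part of the genes of G2 and mitosis were higher. Of 32 tested, 12 were higher and 1 lower (40.6% called, against 24.7% over all genes), with a median log2 fold change of 0.53. This count moved with single libraries: 24 were higher without double KO 3, 6 without double KO 2 and 3 without Recql KO 1 or Recql KO 2. The summed level of the list overlapped between the labels, at 2196, 3195 and 1673 CPM in double KO and 1414, 1618 and 1870.5 CPM in Recql KO. For Blm KO minus WT the median log2 fold change was -0.73. A test of the difference between that contrast and double KO minus Recql KO called 25 of the 32. Many promoters of G2 and mitosis genes carry CCAAT boxes and the cell cycle homology region, through which the genes are held off outside G2. The promoter of Ccnb2, which encodes cyclin B2, is shown for that arrangement at chr9:70421515-70421751, minus strand, with matches to CCAAT and to TTTGAA in capitals.
Ccnb2: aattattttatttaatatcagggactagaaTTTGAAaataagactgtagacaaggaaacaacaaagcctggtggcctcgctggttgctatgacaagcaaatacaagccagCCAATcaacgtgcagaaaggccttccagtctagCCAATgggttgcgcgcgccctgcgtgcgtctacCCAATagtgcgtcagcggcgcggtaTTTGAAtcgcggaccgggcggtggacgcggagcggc
CCAAT matched at 87, 54 and 21 bases before the start, and TTTGAA at 167 before and at 4 after it. CCAAT was in 21 of 26 genes of the list with a promoter (80.8%), against 42.6% of tested genes with a promoter and 37.4% of promoters taken singly. TTTGAA was in 17 of 26 (65.4%), against 14.1% and 17.9%, with both strands searched. Ccnb2 gave 32.1, 43.5 and 23.7 CPM in double KO, against 15.2, 17.4 and 22.1 CPM in Recql KO, groups that lay next to each other without overlap, at 0.86 ± 0.20 (adjusted p = 0.0103). Cdc25c, the phosphatase that starts mitosis, gave 11.5, 14.3 and 8.5 CPM in double KO, against 4.54, 6.13 and 7.31 CPM in Recql KO, at 0.93 ± 0.20 (adjusted p = 0.00869).

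**Figure D4:**
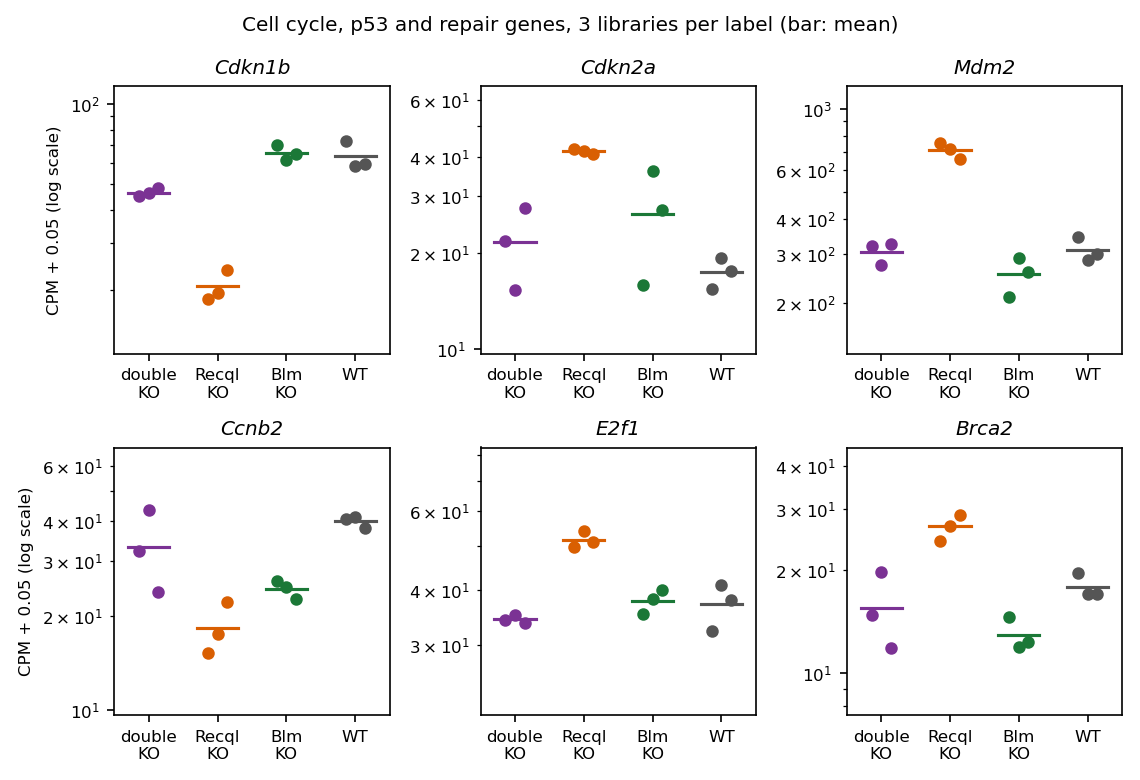
Level of 6 genes in each library (points, CPM + 0.05 on a log axis) by label, with the mean of 3 libraries as a bar. Cdkn1b and Ccnb2 are higher in all 3 double KO libraries than in all 3 Recql KO libraries, and Cdkn2a, Mdm2, E2f1 and Brca2 are lower.

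Genes that copy DNA were seldom called, and those that repair it about as often as all genes. Of 39 DNA replication genes 0 were higher and 4 lower (median log2 -0.20), below the shares over all genes. Leaving out 1 library gave 15 lower without double KO 2, 2 without double KO 1, Recql KO 1 or Recql KO 3 and 1 without double KO 3 or Recql KO 2. E2f1, a factor that turns on S phase genes, gave 34.1, 35 and 33.7 CPM in double KO, against 49.8, 54 and 51.1 CPM in Recql KO, at -0.59 ± 0.09 (adjusted p = 0.00151). Of 32 genes of homologous recombination and the Fanconi pathway 2 were higher and 6 lower, with 3 lower without double KO 1 or double KO 3 and 2 without Recql KO 1, Recql KO 2 or Recql KO 3. Brca2, a gene of repair by homologous recombination, gave 14.7, 19.7 and 11.8 CPM in double KO, against 24.2, 26.8 and 28.9 CPM in Recql KO (log2 fold change -0.79 ± 0.17, adjusted p = 0.00719), and Rad50, of the complex that senses broken ends, had a log2 fold change of -0.55 ± 0.13 (adjusted p = 0.0127). Of 18 replication checkpoint genes 0 were higher and 2 (11.1%), Atm and Atr, lower in edgeR, against 24.7% called over all genes. Atr, the kinase that answers stalled forks, had a log2 fold change of -0.22 ± 0.07 (adjusted p = 0.0391), and its call was lost without double KO 1, double KO 2, Recql KO 2 or Recql KO 3 (adjusted p = 0.106, 0.0619, 0.116 and 0.0944 in edgeR). Atm, the kinase that answers double-strand breaks, averaged 60.7 ± 4.2 CPM in double KO and 83.1 ± 2.64 CPM in Recql KO, at -0.45 ± 0.08 (adjusted p = 0.00246). Of 24 cohesion genes, whose products hold sister chromatids together or release them, 0 were lower and 2 higher (8.33%, under the 13.2% over all genes). They were Espl1, the separase that cuts cohesin, at 0.68 ± 0.22 (adjusted p = 0.0431), and Rad21, the cohesin subunit it cuts, at 0.32 ± 0.10 (adjusted p = 0.048). Both calls were lost without double KO 1, double KO 2, Recql KO 1 or Recql KO 2, with an adjusted p in edgeR of 0.0902, 0.141, 0.15 and 0.105 for Espl1 and 0.102, 0.154, 0.162 and 0.117 for Rad21, and that of Rad21 also without Recql KO 3 (0.0823). Of 12 genes of the BLM complex and the RecQ family, Blm alone was called (8.33%, against 24.7% over all genes). A call that was not made does not show that levels were equal. Counts were simulated for this comparison over 14716 genes, with 67 changed 1.5-fold, 67 changed 2-fold and 66 changed 4-fold. The same steps recovered 25.4%, 77.6% and 95.5% of these. The changed genes averaged at least 1 CPM, and all others were equal across the labels. Only 136 genes were called there, against 3681 in the data, so these rates need not hold for this comparison.

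The loss of Blm was also compared between Blm KO and WT, which share no library with double KO and Recql KO. Of the 112 genes called there 61 were called in both contrasts, 54.5% of those calls and 1.66% of the 3681 in double KO against Recql KO. The direction was the same for 56 and opposite for 5 (Gpr137b, Isyna1, Mmp19, Pld5 and Syt17). Of these 5, Mmp19 and Syt17 kept their call in double KO against Recql KO whichever of the 6 libraries was left out, and Gpr137b, Isyna1 and Pld5 did not. Gpr137b averaged 42.2 CPM in Blm KO and 14.6 CPM in WT. Gpr137b-ps, by its symbol a pseudogene of it, averaged 4.98 CPM in Blm KO and 24.2 CPM in WT. Reads may be shared out between both, which was not tested. Over all tested genes 54.4% had the same sign in both contrasts, and over the 3681 called genes 60.3%. Across the 14876 genes, which are not independent replicates, Pearson's r between both sets of log2 fold changes was 0.16. A test of the difference between the contrasts called 1554 genes (10.4%), 872 with a higher and 682 with a lower value for double KO minus Recql KO, and 1295 of these were among the 3681, or 83.3% of the 1554 and 35.2% of the 3681. Without Recql KO 1, Recql KO 2 or Recql KO 3 the difference was called for 797, 648 and 938 genes, without Blm KO 3 for 549, and without WT 2 or WT 3 for 880 and 1016. All 3 WT libraries and Blm KO 1 were high in the Y genes and Blm KO 2 and 3 low, and with that level as a term the difference was called for 858 genes and Blm KO against WT for 37. The Blm KO against WT count itself was 34 without Blm KO 3, and 40, 31 and 56 without WT 1, WT 2 and WT 3.

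Several genes changed in the same direction in both contrasts. One of them was Ifi202b, which encodes a DNA-binding protein of the interferon-inducible p200 family. It gave 179.7, 55.6 and 16.1 CPM in double KO, against 0.0371, 0.12 and 0.0819 CPM in Recql KO, and 69.6, 32.6 and 46.9 CPM in Blm KO, against 0.129, 0.207 and 0.0569 CPM in WT. All 6 libraries with a Blm -/- label were above all 6 without, although those 6 spread widely. The log2 fold change was 9.98 ± 1.09 (adjusted p = 0.000342) for double KO minus Recql KO, or 8.75 without double KO 1, and 8.52 ± 1.01 (adjusted p = 0.00432) for Blm KO minus WT. Mnda, of the same family, gave 21.6, 9.69 and 12.8 CPM in double KO, against 105, 116 and 119.6 CPM in Recql KO, at -2.95 ± 0.33 (adjusted p = 0.00038), and had a log2 fold change of -2.8 ± 0.33 (adjusted p = 0.00432) for Blm KO minus WT. Ifi202b lies at chr1:173962569-173982844 and Mnda at chr1:173896339-173913087, and reads may be shared out among the related genes there. Cd200, a surface protein that restrains macrophages, averaged 27.4 ± 8.54 CPM in double KO and 1.13 ± 0.324 CPM in Recql KO, at 4.6 ± 0.33 (adjusted p = 8.3e-05), and 2.11 ± 0.29 (adjusted p = 0.00871) for Blm KO minus WT. Pdgfrl, a secreted protein that resembles a growth factor receptor, averaged 63.9 ± 16.4 CPM in double KO and 6.03 ± 1.14 CPM in Recql KO, at 3.4 ± 0.20 (adjusted p = 3.36e-05), and 1.92 ± 0.19 (adjusted p = 0.00134) for Blm KO minus WT. Map2 was also higher in both, at 1.67 and 2.62. Lower in both were Fmn2, a formin that builds actin filaments, at -2.01 ± 0.34 (adjusted p = 0.00272) and -3.05 ± 0.37 (adjusted p = 0.00432), and Emx2, a homeobox factor of the urogenital tract and cortex, at -1.21 ± 0.27 (adjusted p = 0.00979) and -1.71 ± 0.28 (adjusted p = 0.0235). Cd200, Pdgfrl, Fmn2, Emx2, Mnda, Hddc3, Ngrn, Gpr137b-ps and the 5 genes called in opposite directions were chosen for the text after their values were seen.

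**Figure D5:**
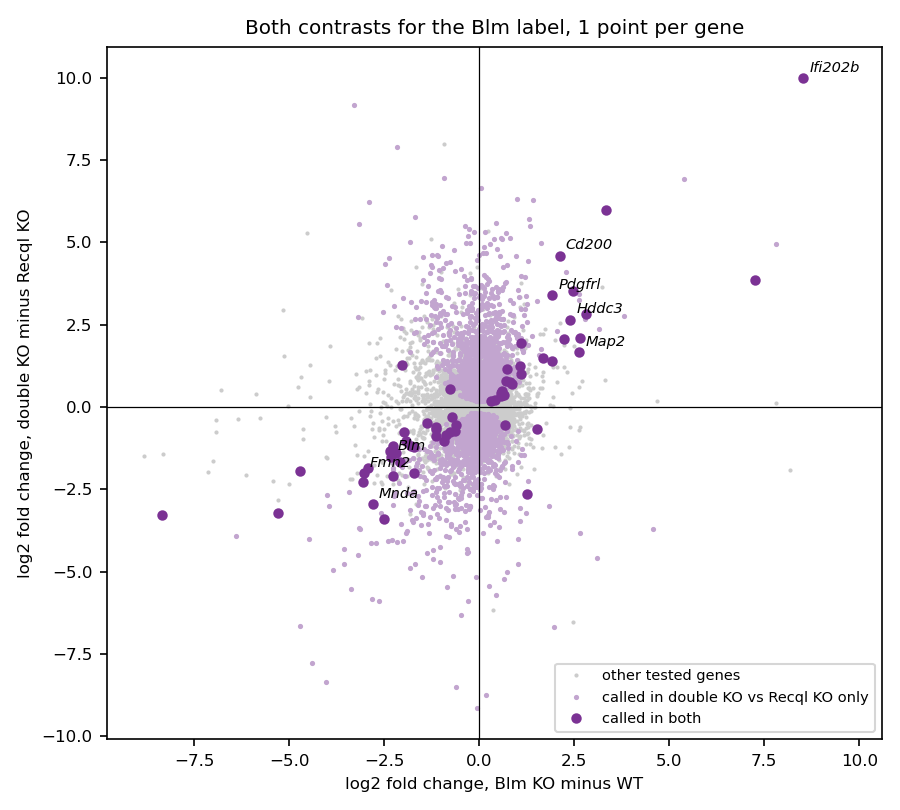
Each point is 1 of 14876 genes, with the log2 fold change of Blm KO minus WT on the horizontal axis and of double KO minus Recql KO on the vertical axis; dark points were called in both contrasts (61 genes). Most of the light purple points, called in double KO against Recql KO alone, spread vertically around 0 on the horizontal axis, and Ifi202b is at the top right.

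A few of the genes called in both contrasts lie beside Blm. Of the 61, 60 had a position in the annotation, 9 were on chromosome 7, which held 1096 tested genes, and 4 besides Blm lay within 10 Mb of it. Hddc3, which encodes a hydrolase and lies at chr7:80343075-80346716, gave 8.32, 7.23 and 7.78 CPM in double KO, against 1.06, 1.31 and 1.33 CPM in Recql KO. It was 8.23 CPM in Blm KO and 1.56 CPM in WT on average, so that the labels with and without Blm formed 2 levels. Its log2 fold change was 2.66 ± 0.21 (adjusted p = 0.000107) for double KO minus Recql KO and 2.4 ± 0.21 (adjusted p = 0.000421) for Blm KO minus WT. Ngrn, which encodes neugrin, a protein of mitochondrial ribosome assembly, lies at chr7:80261215-80265378 and averaged 13.4 ± 1.07 CPM in double KO and 6.68 ± 0.338 CPM in Recql KO, at 1.01 ± 0.09 (adjusted p = 0.000149), with 1.11 ± 0.09 (adjusted p = 0.000421) for Blm KO minus WT. Over all tested genes within 10 Mb of Blm 33 of 100 were called in double KO against Recql KO (33.0%, against 24.7% over all genes), and within 10 Mb of Recql 25 of 87 (28.7%). Closer to the genes the shares were 29.2% of 72 within 5 Mb and 25.5% of 55 within 2 Mb of Blm, and 34.1% of 41 within 5 Mb and 46.7% of 15 within 2 Mb of Recql. The part of the DNA around the targeted alleles in these values was not tested.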

How the data were processed

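Polyadenylated RNA of primary MEFs was measured in 12 libraries, 3 for each of 4 genotypes, and the 6 labelled double KO and Recql KO were compared. Per the labels' protocols, RNA came from cell pellets and went into KAPA stranded mRNA libraries. The submitters' processing notes name Bowtie2 2.1.0, RSEM 1.2.15 and the genome build mm10. A single table was deposited by the authors and holds expected counts, RSEM's estimates for each gene, which need not be whole, and 17.4% to 20.2% of a library's values were not. The annotation and the strand setting of the counting are not given in the sources used here, so reads of overlapping or antisense genes cannot be told apart.

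Expected counts were rounded and tested in R 4.3.3 with edgeR 4.0.16: filterByExpr by group left 14876 genes (99.99% of counts), TMM scaling gave factors of 0.96 to 1.03, and all 12 libraries entered 1 model with a mean for each genotype (8 residual degrees of freedom, common BCV, the biological coefficient of variation, 0.209). Robust quasi-likelihood F tests were adjusted by Benjamini-Hochberg over all 14876 genes, and genes under 0.05 were called. The same fit gave Blm KO against WT and the difference between both contrasts. Libraries within a label differed beyond counting noise (chi-square over its degrees of freedom, 26.3 to 172). The steps were tested on simulated counts, where they called 136 genes, 4 of them false, and 0 with none changed. Positions were matched by symbol for 14807 genes (99.5%), and promoters are RefSeq's on GRCm38.p6, with those on chromosome 18 left out.

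The lists and the members were chosen with earlier results of these data known. The genes named come from a rule: Blm, Recql, Cdkn1a, Trp53 and Cdkn2a, the 12 highest and 12 lowest called genes with at least 1 CPM and no overlap, up to 4 called members of each list, and the 8 largest changes at 100 CPM or more. A subset is printed, picked after the values were seen, with exceptions named. How often printed genes keep their calls therefore says nothing of the other called genes. Alternatives were scaling by relative log expression (RLE), testing without a filter, DESeq2 1.42.0, a stricter filter (CPM above 1 in 3 libraries), only the groups compared, the replicate number as a block, a covariate for the Y-linked level, libraries high (over 100 CPM) or low (under 10 CPM) in Y-linked transcripts, and leaving out each library.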

Additional observations from a re-analysis of the deposited data

Results flagged for a closer look

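For 1554 genes the change on loss of Blm differed between the contrasts, by a test of the difference itself in edgeR (double KO minus Recql KO, less Blm KO minus WT). Of the genes named above 56 were among them, with an adjusted p between 0.000908 for Syt17 and 0.0472 for Cdkn1a. No explanation was tested, and the log2 differences below inherit the limits given with each gene.

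Among matrix and skeletal genes the difference was 5.34 for Eln, 2.59 for Fbn2, 2.06 for Col3a1, 0.82 for Col1a1, 2.08 for Aspn, 4.14 for Col2a1, 7.89 for Col9a1, 3.62 for Col9a2 and 3.88 for Smpd3. For Mylk it was 1.6, for Msln 5.68 and for Krt8 6.84. The growth genes had 5.7 for Igf2, 5.49 for H19 and 5.88 for Mest. Genes of signalling and position had 2.8 for Axin2, 2.33 for Wnt16, 2.46 for Foxd1, 5.21 for Tcf21, -1.07 for Hoxb8, 7.46 for Heyl, 4.73 for Gucy1a3 and 2.48 for Tenm3.

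Secreted and immune genes had -8.92 for Prl2c2, -5.69 for Serpinb2, 1.34 for Adamts12 and -2.18 for H2-K1. Stress and metabolic genes had -2.18 for Nqo1, -2.42 for Hmox1, -1.09 for Gclc, -1.51 for Blvrb, 0.87 for Slc7a5, 1.14 for Psat1, 0.87 for Hspa5, 0.71 for Xbp1, -0.57 for Dnajb9 and 1.2 for Mvk. Cell cycle and repair genes had -0.75 for Cdkn1a, -1.55 for Cdkn2a, -0.92 for Mdm2, -0.62 for Plk2, 1.13 for Cdkn1b, 2.67 for Cdkn1c, 1.58 for Ccnb2, 1.64 for Cdc25c, -0.62 for E2f1, -0.42 for Atm, 1.26 for Espl1 and 0.61 for Rad21. Cd200 and Pdgfrl, which rose in both contrasts, rose more in double KO against Recql KO, by 2.49 and 1.48. The genes called in opposite directions had -2.21 for Gpr137b, 1.32 for Isyna1, -1.24 for Mmp19, 3.31 for Pld5 and -3.89 for Syt17.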

How the results depend on the processing

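The count for double KO against Recql KO (3681) was within 1.5 times under RLE scaling (3693), no filter (3245), CPM above 1 (3491), DESeq2 (4542), only the groups compared (3153) and the Y-linked covariate (3741). It was 373 among libraries high and 200 among those low in Y-linked transcripts, fits that set 1 library against 1 and 2 against 1, take the spread from other labels and are too small to be read, and 2157 to 3519 with 1 library left out. The difference between contrasts (1554) was 2625 in DESeq2, 858 with the Y-linked covariate, 5 among libraries high in Y-linked transcripts and 549 to 1836 with 1 library left out. Blm KO against WT (112) gave 968 in DESeq2, 37 with the covariate, 2 among libraries high in Y-linked transcripts and 31 to 114 with 1 library left out. The causes of the moves in DESeq2 and with the covariate were not tested. Low Y-linked libraries held no WT, so the last 2 counts could not be fitted there. After subtraction of label means, same-numbered libraries of different labels correlated at -0.168 to 0.227, and differently numbered ones at -0.312 to 0.227. With 3 libraries a label these values cannot decide whether the numbers pair the samples. With the replicate number as a block the counts were 3893, 1615 and 120. Of 83 called genes named in the text, Gpr137b-ps left out, 73 kept their call whichever of the 6 libraries was left out. The number was 82 under RLE scaling, 83 in DESeq2 and 77 in only the groups compared. Recql, not called, had a log2 fold change of -0.47 among low Y-linked libraries and of -0.22 to 0.25 with 1 library left out, -0.05 without Recql KO 1. Interferon-stimulated genes had 11 lower in DESeq2, 3 in only the groups compared and 12 with the block, and G2 and mitosis genes 5 higher in only the groups compared. Depth gave at least 47758552 counts a library, so the spread between 3 libraries limits these results more than counting.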
